A study of Mus musculus with 60 samples.

Results

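Mammary glands of ovariectomized mice given estrogen alone were compared with glands of ovariectomized mice given only the oil in which hormones were injected. The estrogen group (E) received 2 µg of 17-beta-estrogen into the abdominal cavity daily for 4 days, and the vehicle group (V) received 100 µl of sesame oil on the same schedule, with 4 animals in each group. These 8 animals, chosen by the titles of their samples, gave 24 of the 60 arrays and are 8 of the 20 animals of the study. Every animal had lost its ovaries, so V is a gland without ovarian hormones and not a normal gland. The design text has the lymph nodes removed before tissue was collected. The description field of the V samples names progesterone, but sesame oil is what their titles and treatment protocols give. The sources used here give neither strain nor age. The other groups, used below only to set the estrogen difference beside another one, received 1 mg of progesterone (P, 4 animals), both hormones (E+P, 5 animals), or both hormones in animals whose fat pads without epithelium were taken (E+P CFP, 3 animals). Total RNA of each animal was read on 3 Affymetrix array types, called A, B and C here. Values are log2 intensities unless said otherwise, and a difference is the mean of E minus the mean of V, ± the standard error of the limma fit. A probe set was called when its Benjamini-Hochberg adjusted p, over all 23067 probe sets bright enough to be tested, was under 0.05. Dim values were raised to a floor, 3.77, 4.84 or 4.31 on types A, B and C, and a difference with animals of the dimmer group at the floor is a lower bound of its size.

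Estrogen acts through nuclear receptors that bind DNA as dimers and through partner factors on other promoters. In the mammary gland the receptor is held by a share of the luminal epithelial cells and by stromal cells, and much of the response of other cells is passed on by secreted factors. Estrogen is known to start cell division in the resting epithelium of ovariectomized animals and to induce the progesterone receptor. The gland is a thin tree of epithelium in a fat pad with white adipocytes, some brown or beige adipocytes, vessels, fibroblasts and immune cells. In such whole tissue, fewer cells of a type and less RNA per cell cannot be told apart.

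The glands held epithelium, and 1 vehicle gland held more lymphoid RNA than the other three. A score, the mean log2 deviation of a marker list from its mean over all 20 animals, was taken for each list. The luminal epithelium score lay between 0.18 and 0.48 in V and between 0.13 and 0.84 in E, against -2.91 to -2.85 in the fat pads without epithelium. The score of 23 lymphocyte and plasma cell markers (of 26 listed) read -1.39, -1.31, -1.34 and 1.32 in V 1 to V 4 and 0.45, 1.66, 0.64 and 1.01 in E 1 to E 4. V 4 was therefore with the E animals and apart from V 1, V 2 and V 3. The B cell genes Cr2 and Pou2af1 were at the floor in V 1, V 2 and V 3, and so was Glycam1, a mucin of lymph node venules and of milk, which read 10.78 in V 4 and from 10.27 to 11.79 in E. E 1 had the highest skeletal muscle score of the 8, at 1.50. RNA breakdown raises the signal of 3' over 5' control probe sets of Gapdh, and this ratio averaged 1.51 ± 0.21 (SD, n = 4) in E and 2.41 ± 0.68 (SD, n = 4) in V. Its log2 value was lower in E by a difference of -0.65 (two-sided exact permutation p = 0.0286, the smallest that 4 against 4 animals allow). V 4 had the highest ratio of the 8, at 3.42, against 1.94 to 2.21 in V 1, V 2 and V 3. The labels name the extraction reagent for all 12 E arrays and for 0 of the 12 V arrays. The numbers of animals limit the precision of every value below.

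**Figure D1:**
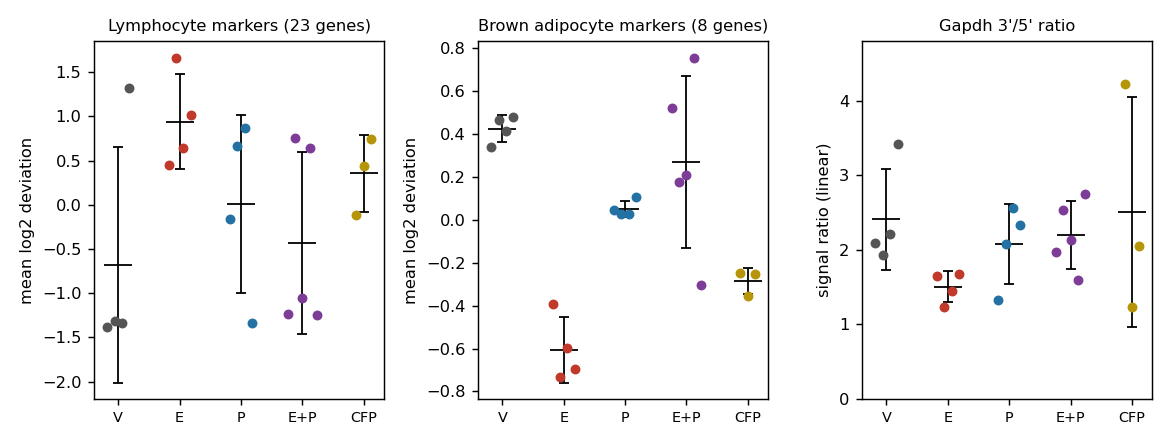
Marker scores (mean log2 deviation from the mean of 20 animals) and the Gapdh 3'/5' signal ratio (linear) for each animal of the 5 groups, with group mean and SD as bars. V 4 reads 1.32 on the lymphocyte score against -1.39 to -1.31 in the other vehicle animals, and the brown adipocyte scores of V (0.34 to 0.48) and E (-0.73 to -0.39) do not overlap.

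Between E and V 42 of the 23067 tested probe sets were called (0.182%), 19 higher (0.0824%) and 23 lower (0.0997%) in E. Of these, 37 carried a single gene symbol and stood for 35 genes, 14 higher and 21 lower. The groups did not overlap for any of the 42, against 7.52% of all tested probe sets (3.68% with E higher, 3.84% with E lower). The 42 were picked from these same values, so their lack of overlap is a description. Differences ranged in size from 0.70 to 4.87 with a median of 1.16, and 24 exceeded 1, a 2-fold change. By the probe set that represents each gene, 26 of 12234 genes were called (0.213%), 10 higher (0.0817%) and 16 lower (0.131%). The gene lists below were chosen with earlier results of these data known. Their counts, set beside these shares of all genes, are therefore a description and no evidence of enrichment. At an unadjusted p under 0.05, 6.02% of probe sets were higher and 6.11% lower. The Gapdh ratio and the naming of the extraction reagent also differed between the groups, and their parts in the calls cannot be told apart from that of estrogen. V 4 was among the V animals in these fits, so its place outside the E range for all 42 follows from the absence of overlap and is only a description. Without V 4 the count was 143 (0.62%; 74 higher, 0.321%, and 69 lower, 0.299%), which held 39 of the 42. By genes it was then 89 (0.727%), 46 higher (0.376%) and 43 lower (0.351%). V 4 was left out after its values were seen, so any call, rise or fall without it is a description, here and below. The count of probe sets was 13 without E 4 (8 and 5), 20 without E 2 (14 and 6), 14 without V 3 (9 and 5) and 17 without V 2 (12 and 5), and without V 1 it was 28 (19 and 9). With the lymphocyte score in the model 9 passed (7 and 2), 7 of them among the 42. With the Gapdh ratio in the model 21 passed (14 and 7), 18 of them among the 42. With the skeletal muscle score in the model 37 passed (17 and 20), all of them among the 42. With any 1 of the 8 animals left out, 11 of the 42 kept their calls: Cd93, Cidea, Fkbp5, Gpx3, Gpx8, Pbk, Ucp1, 1 probe set each of Fubp1 and Zbtb20, and 2 without a gene name. With the lymphocyte score in the model the calls of Cd93, Fkbp5 and Gpx8 were lost (adjusted p = 0.0852 for each). Below, a call is said to be lost without an animal where the fit that leaves that animal out gave an adjusted p of 0.05 or more. Losses with a covariate in the model are not given for every gene.

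The rises included genes that steroid hormones are known to induce. Fkbp5, a cochaperone that binds steroid receptor complexes, read 7.32, 6.59, 6.81 and 7.58 in V 1 to V 4 and 9.27, 9.66, 8.63 and 8.63 in E 1 to E 4. The lowest E animal stood about 1 log2 unit above the highest V animal. It rose by 1.97 ± 0.31 (adjusted p = 0.00743), a 3.93-fold difference. Zbtb16, a zinc finger transcription factor also called PLZF, read 7.61, 7.10, 7.29 and 6.34 in V 1 to V 4 and 9.16, 9.22, 8.69 and 9.49 in E 1 to E 4. All E animals were above all V animals, and V 4 was the lowest of the 8. Zbtb16 rose by 2.06 ± 0.37 (adjusted p = 0.0185), and its probe set on array type C rose by 1.35 ± 0.27 (adjusted p = 0.0332). The type A call was lost without E 2, E 4, V 2 or V 3 (adjusted p from 0.0559 to 0.0743), and the type C call was lost without E 1, E 2, E 4, V 1, V 2 or V 3 (adjusted p from 0.0725 to 0.115). Of 18 tested members of the steroid-induced list, 2 rose by their representing probe sets and 0 fell, against 0.0817% and 0.131% of all genes. The median difference was 0.20 against a median of 0.00019 over all genes tested. Glul, glutamine synthetase, rose by 1.19 ± 0.24 (adjusted p = 0.0336) on probe set 117284_at, a call lost without E 1, E 2, E 4, V 2, V 3 or V 4 (adjusted p from 0.0517 to 0.116). However, 94852_at, which represents it, stood at 0.33 (adjusted p = 0.523). Other members spread in both directions: Map3k6, a stress kinase, stood at 1.20 (adjusted p = 0.313) and Pdk4, which restrains pyruvate oxidation, at -0.80 (adjusted p = 0.337). A probe set of Zbtb20, another zinc finger repressor, rose by at least 1.95 (adjusted p = 0.00743; V 1 and V 4 at the floor). Its representing probe set stood at -0.10 and the 4 others tested lay between -0.21 and 0.38, so the gene as a whole gave no single direction.

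No classical target of the estrogen receptor was called. Of the 22 genes listed, 17 were tested, 0 were called in either direction, and the median difference was -0.044. Stc2, a secreted glycoprotein hormone, read 7.81, 8.29, 8.19 and 8.92 in V 1 to V 4 and 9.96, 9.02, 9.38 and 9.98 in E 1 to E 4. Its groups did not overlap, V 4 being the highest of the V animals, and the difference of 1.28 ± 0.31 (adjusted p = 0.098) missed the threshold; without V 4 it rose by 1.49 (adjusted p = 0.0395). Egr3, an early growth response factor, stood at 1.32 (adjusted p = 0.199) with overlapping groups, Myc at 0.62 (adjusted p = 0.477) and the cyclin Ccnd1 at -0.046 (adjusted p = 0.956). Tff3, a trefoil peptide of mucous epithelia, stood at -1.06 (adjusted p = 0.271), with 2 of the 4 E animals at the floor and no overlap. Esr1, which encodes the receptor itself, read 9.83, 9.77, 9.90 and 9.11 in V 1 to V 4 and 9.36, 9.02, 9.17 and 8.97 in E 1 to E 4; the difference was -0.52 ± 0.20 (adjusted p = 0.296), and V 4 was inside the E range. The progesterone receptor gene Pgr did not pass the filter on dim values: its deposited intensities reached 26.5 at most in these 8 animals, against a minimum of 61.6 on its array type. Greb1, another known target, was also too dim to test, with intensities from 17.5 to 60 in V and from 40.4 to 81 in E on the linear scale. The groups overlapped. No probe set carried Areg, the epidermal growth factor family ligand, as its only symbol. Among 12 tested hormone receptors and cofactors 0 were called, with a median of -0.12. Thra, a thyroid hormone receptor, stood at -0.28 (adjusted p = 0.319) and Igf1r at 0.40 (adjusted p = 0.565).

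Tph1, the enzyme of the first step of serotonin synthesis outside the brain, had the largest rise among called probe sets with a gene name. On array type A it read 3.77, 3.77, 3.77 and 3.77 in V 1 to V 4 and 7.83, 5.50, 7.11 and 7.11 in E 1 to E 4. Every V animal was at the floor and every E animal above it, with E 2 the lowest. The mean of E was at least 8.69-fold higher (adjusted p = 0.0174). Its probe set on type B read 5.93, 4.84, 4.84 and 4.84 in V 1 to V 4 and 8.68, 6.95, 8.17 and 7.85 in E 1 to E 4, a rise of at least 2.80 (adjusted p = 0.0271), and V 1 was the only V animal off the floor. The type A call was lost without E 1, E 3, E 4, V 2 or V 3 (adjusted p from 0.0548 to 0.0743), and the type B call was lost without E 1, E 3, E 4, V 2 or V 3 (adjusted p from 0.0733 to 0.0885). Of 8 tested genes of serotonin and tryptophan metabolism, 1 rose and 0 fell, against 0.0817% and 0.131% of all genes, with a median of -0.27. Tph1 was the 1 that rose, and the list was chosen with earlier results known, so these counts are a description. Ido1, which opens the other main route of tryptophan breakdown, read 3.77, 5.20, 5.57 and 5.04 in V 1 to V 4 and 7.61, 6.47, 6.84 and 8.41 in E 1 to E 4. Its groups did not overlap, V 1 being at the floor, and the difference of 2.44 ± 0.52 (adjusted p = 0.0597) missed the threshold. Maoa and Maob, the monoamine oxidases, stood at -0.68 and -0.26 (adjusted p = 0.27 and 0.464). Serotonin is also made by mast cells. None of the 6 tested mast cell markers of 11 listed was called, their median was -0.036, and their score lay between -0.53 and 0.33 in V and between -0.08 and 0.03 in E. The part of mast cells in the Tph1 values was not tested.

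Promoters of called genes were searched for AGGTCA, the core motif that estrogen receptors share with other nuclear receptors, on both strands of 250 bases before to 50 bases after each start in the RefSeq promoter table (GRCm38.p6). The motif was in 5340 of all 32851 promoters (16.3%) and in 15.5% of the 9747 tested genes with a promoter there. It was in 3 of the 10 higher and 2 of the 15 lower called genes that had one. The longer, full estrogen response element was searched for too. It was in 0 of these 10 higher and 0 of these 15 lower genes, and in 0 of 11 classical targets. It was also in 0 of the 9747 tested genes and in 23 of all promoters (0.07%), so its absence does not set called genes apart. The windows below are 60 bases each, with the core motif in capitals, and are written on the strand of the gene. They are those of 2 genes that rose and of Ucp1, the largest fall among called probe sets with a gene name. They lie at chr7:46667505-46667564 (minus strand), chr1:153899842-153899901 (plus strand) and chr8:83290288-83290347 (plus strand), and the motif starts 157, 57 and 14 bases before the start site. A match is a description of letters and not a binding site.
Tph1: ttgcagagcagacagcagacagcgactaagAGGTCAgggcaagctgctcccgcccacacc
Glul: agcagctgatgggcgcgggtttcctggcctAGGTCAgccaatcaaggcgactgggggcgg
Ucp1: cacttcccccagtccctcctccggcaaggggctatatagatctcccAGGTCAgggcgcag

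Pbk and Cdca4, genes of dividing cells, were higher in E than in V. Pbk, a kinase active in mitosis, read 4.84, 4.84, 5.00 and 4.88 in V 1 to V 4 and 6.87, 7.38, 7.03 and 7.24 in E 1 to E 4. The V animals were at or just above the floor and the E animals close together above them. Pbk rose by at least 2.24 (adjusted p = 0.00743); a second probe set of it, with a suffix that marks shared sequence, stood at 0.14 near the floor. Cdca4, a nuclear protein of dividing cells, read 6.82, 7.02, 6.87 and 7.02 in V 1 to V 4 and 7.54, 7.80, 7.59 and 7.93 in E 1 to E 4 and rose by 0.79 ± 0.13 (adjusted p = 0.00864). Its call was lost without E 4 (adjusted p = 0.0518), and another tested probe set of it stood at 0.069 (adjusted p = 0.905). Of 31 tested mitosis and G2 genes, 1 rose and 0 fell, against 0.0817% and 0.131% of all genes, and the median difference was 0.67. At an unadjusted p under 0.05, 14 of them were higher and 0 lower, against 6.05% and 6.44% of all genes, and the groups of 8 did not overlap with E higher, against 3.77% of genes.

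The proliferation marker Mki67 read 5.10, 5.85, 5.16 and 5.87 in V 1 to V 4 and 6.52, 7.57, 6.60 and 7.02 in E 1 to E 4. Its groups did not overlap and E 2 was the highest, and the difference was 1.43 ± 0.41 (adjusted p = 0.164). Birc5, the survivin of the chromosomal passenger complex, stood at 1.50 (adjusted p = 0.0968) and the spindle motor Kif23 at 1.65 (adjusted p = 0.127), both without overlap, with V 4 at the floor for Kif23. Cdk1, the kinase that drives entry into mitosis, stood at 1.75 (adjusted p = 0.137), and its groups overlapped because E 1 (5.78) was below V 2 (6.24). The mitosis score read -0.59, -0.42, -0.72 and -0.28 in V 1 to V 4 and -0.16, 0.59, 0.19 and 0.45 in E 1 to E 4, so E 1 was the lowest of the E animals but above every V animal. The 30 tested genes of DNA replication and S phase had a median of 0.36, with 0 called and 7 higher and 0 lower at an unadjusted p under 0.05, against 6.05% and 6.44% of all genes. Uhrf1, which carries DNA methylation through replication, stood at 1.33 (adjusted p = 0.142) and the helicase subunit Mcm2 at 0.76 (adjusted p = 0.183), both without overlap. The replication score of V 4 (0.0062) was above that of E 1 (-0.12), so the groups overlapped there. Lymphocyte markers also stood higher in E, and their part in these values was not tested. V 4, with a lymphocyte score of 1.32, had the highest mitosis score of the V animals and was below all E animals.

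Many genes of late cell cycle share the letters TTTGAA, a form of the core of the cell cycle genes homology region, near their start sites. In the same promoter table TTTGAA was on either strand in 17 of the 24 tested mitosis and G2 genes that had a promoter there (70.8%), in 3 of 26 replication genes (11.5%), in 14.7% of tested genes and in 17.9% of all promoters. CCAAT was in 19 of those 24 mitosis genes (79.2%), in 15 of 26 replication genes (57.7%), in 42.4% of tested genes and in 37.4% of all promoters. It was also in 9 of the 10 higher and 7 of the 15 lower called genes with a promoter there. Shares of genes count a gene when any of its promoters held the letters, and the share of all promoters counts each promoter. The windows of 3 mitosis genes show TTTGAA in capitals, close to the start site in Cdk1 and Cdc20 (15 and 18 bases before it) and at both of its places in Mki67. They lie on the minus strand at chr10:69352913-69352972, chr7:135716448-135716507 and chr4:118437344-118437403, and are written on the strand of the gene.
Cdk1: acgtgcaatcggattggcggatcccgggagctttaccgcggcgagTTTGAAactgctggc
Mki67: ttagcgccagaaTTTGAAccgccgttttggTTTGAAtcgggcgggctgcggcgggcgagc
Cdc20: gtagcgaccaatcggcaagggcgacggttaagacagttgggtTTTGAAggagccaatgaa

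Among epithelial genes a luminal keratin rose. Krt19, a keratin of luminal cells, read 9.84, 9.40, 9.39 and 9.77 in V 1 to V 4 and 10.76, 10.30, 10.73 and 11.39 in E 1 to E 4. The E animals were all above the V animals, and E 4 was the highest. It rose by 1.19 ± 0.21 (adjusted p = 0.0185); a second probe set stood at 1.08 (adjusted p = 0.166), and the call was lost without E 4, V 2 or V 3 (adjusted p from 0.0737 to 0.0872). In the fat pads without epithelium Krt19 was at the floor in all 3 animals. Krt8, its partner in simple epithelia, stood at 0.85 (adjusted p = 0.0968) without overlap, and Krt18 at 0.28 (adjusted p = 0.564) with overlap. Cd24a, a surface glycoprotein of luminal cells and of developing lymphocytes, stood at 1.04 (adjusted p = 0.0751) and rose without V 4, by 1.21 (adjusted p = 0.0237). Muc1, an apical mucin, stood at -0.57 (adjusted p = 0.249). Of 22 tested luminal markers 1 rose and 0 fell, against 0.0817% and 0.131% of all genes. Their median was 0.15, and the luminal scores of V and E overlapped. The 14 tested basal and myoepithelial markers had 0 calls and a median of 0.016 (-0.094 without V 4), where Krt15 had the smallest p and stood at 0.55 (adjusted p = 0.356). The basal keratin Krt14 was too dim to test on both of its probe sets.

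Milk genes and the paracrine genes linked to the progesterone receptor showed no call. The milk and secretory list had 13 tested members, 0 called and a median of -0.075. The smallest p belonged to Glycam1, the mucin noted above for V 4, at 5.62 (adjusted p = 0.162) with overlapping groups, and Wfdc18, a whey acidic protein family member, stood at 0.64 (adjusted p = 0.489). Btn1a1, a coat protein of milk fat globules, stood at -1.41 (adjusted p = 0.206) without overlap, and Lalba, the milk protein alpha-lactalbumin, at -1.78 (adjusted p = 0.223) with E 2 and E 4 at the floor. Lalba read 4.12 in V 4 against 6.34 to 6.91 in the other V animals. Without V 4 its difference was -2.41 (adjusted p = 0.0374), which is a description. The caseins' gene Csn2 and the whey gene Wap were too dim to test, as was Tnfsf11, which encodes the paracrine ligand RANKL; its intensities were 3.3 to 17.2 in V and 21 to 38.1 in E on the linear scale, all below the filter. The 8 tested progesterone receptor paracrine genes had 0 calls and a median of -0.02 (0.073 without V 4). Wnt4, a secreted signal of luminal cells, stood at 0.59 (adjusted p = 0.34), Stat5b at -0.20 and Stat5a at -0.086, each with overlapping groups. The 19 Wnt ligands and modulators tested had 0 calls and a median of 0.20 (-0.036 without V 4), where the coreceptor Lrp6 had the smallest p and stood at -0.32 (adjusted p = 0.262).

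A gene of the secretory route and the peroxidase Gpx3 rose, and the peroxidase Gpx8 fell. Tmed3, a cargo receptor between the endoplasmic reticulum and the Golgi, read 9.21, 9.49, 9.45 and 9.43 in V 1 to V 4 and 10.48, 9.98, 10.10 and 10.49 in E 1 to E 4. The V animals lay close to each other and below all E animals, and Tmed3 rose by 0.87 ± 0.14 (adjusted p = 0.00864); without E 4 the call was lost (adjusted p = 0.0518). Of 25 tested genes of endoplasmic reticulum folding and stress, 1 rose and 0 fell, against 0.0817% and 0.131% of all genes, with a median of 0.21. The groups of 5 did not overlap with E higher, against 3.77% of all genes; among them Herpud1, a gene of endoplasmic reticulum stress, stood at 0.67 (adjusted p = 0.113) and the disulfide isomerase Pdia3 at 0.68 (adjusted p = 0.188).

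Gpx3, a peroxidase secreted into the extracellular space, was already bright in V and read 11.68, 11.08, 11.70 and 11.58 in V 1 to V 4 and 12.94, 12.80, 12.73 and 12.92 in E 1 to E 4. V 2 was the lowest and the E animals lay close together. Gpx3 rose by 1.34 ± 0.20 (adjusted p = 0.00743), a 2.53-fold difference; a dim second probe set stood at -0.37 (adjusted p = 0.744). Gpx8, a peroxidase of the endoplasmic reticulum membrane, went the other way and read 11.46, 11.38, 11.54 and 11.06 in V 1 to V 4 and 10.37, 10.03, 10.30 and 9.93 in E 1 to E 4. It fell by 1.20 ± 0.19 (adjusted p = 0.00743) with no overlap, and V 4 was the lowest V animal. Of 22 tested antioxidant and peroxidase genes, 1 rose and 1 fell, against 0.0817% and 0.131% of all genes, with a median of -0.078. The mitochondrial superoxide dismutase Sod2 stood at -0.79 (adjusted p = 0.0697) and the glutathione synthesis gene Gclm at 0.61 (adjusted p = 0.126), both without overlap. Sod2 fell without V 4, by 0.87 (adjusted p = 0.0368).

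Ucp1 and Cidea, genes of brown adipocytes, were lower in E than in V. Ucp1, which lets protons back into mitochondria so that heat is made, read 7.45, 8.13, 7.41 and 7.41 in V 1 to V 4 and 4.92, 3.77, 5.01 and 3.77 in E 1 to E 4. The V animals were alike apart from V 2, which was higher, and E 2 and E 4 were at the floor. Ucp1 fell by 3.23 or more (adjusted p = 0.00743), and a second, dimmer probe set stood at -1.45 (adjusted p = 0.118). Cidea, which coats lipid droplets in brown adipocytes, read 8.74, 8.96, 9.49 and 8.85 in V 1 to V 4 and 7.13, 7.13, 7.66 and 7.56 in E 1 to E 4, with a wide gap between the groups, and fell by 1.64 ± 0.26 (adjusted p = 0.00832). Cox8b, a cytochrome oxidase subunit of brown fat and muscle, fell by 0.98 ± 0.18 (adjusted p = 0.0234) on probe set 160851_r_at, a call lost without E 2, E 4, V 1, V 2 or V 3 (adjusted p from 0.0704 to 0.106). It stood at -0.73 (adjusted p = 0.0998) on the probe set that represents it, without overlap on either. Cox7a1, another such subunit, stood at -1.28 (adjusted p = 0.0994) without overlap. Of 14 brown adipocyte markers, 8 were tested by their representing probe sets, and 2 fell and 0 rose, against 0.131% and 0.0817% of all genes. The groups of 5 did not overlap with E lower (4.41% of all genes), and the median was -0.73. Cox8b and Cox7a1 are also genes of muscle. The 19 tested skeletal muscle markers had 0 calls and a median of -0.0053 (0.18 without V 4), and their scores ran from -0.86 to 0.46 in V and from -1.01 to 1.50 in E. The part of muscle in the Cox8b and Cox7a1 values was not tested.

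The called genes of mitochondria and fat outside the brown list fell. The 33 tested subunits of oxidative phosphorylation had a median of -0.32 with 0 called; 16 were lower and 1 higher at an unadjusted p under 0.05, against 6.05% higher and 6.44% lower of all genes. The groups of 11 did not overlap with E lower, against 4.41% of all genes. Sdhd, a membrane anchor of succinate dehydrogenase, stood at -0.63 (adjusted p = 0.0968), and Uqcrc1, a core subunit of complex III, at -0.39 (adjusted p = 0.182). Acaa2, the last enzyme of mitochondrial fatty acid oxidation, read 11.91, 11.96, 12.19 and 12.32 in V 1 to V 4 and 11.47, 10.97, 11.46 and 11.26 in E 1 to E 4 and fell by 0.81 ± 0.15 (adjusted p = 0.0277), a call lost without E 2, E 4, V 2 or V 3 (adjusted p from 0.0615 to 0.142). Fabp5, a fatty acid carrier of the cytoplasm, read 9.29, 9.61, 9.77 and 9.59 in V 1 to V 4 and 8.92, 8.70, 8.22 and 8.52 in E 1 to E 4 and fell by 0.98 ± 0.17 (adjusted p = 0.0193), a call lost without E 3, E 4, V 2 or V 3 (adjusted p from 0.066 to 0.0872). The groups of both were apart, by a narrow margin. Citrate synthase (Cs) fell by 0.89 ± 0.18 (adjusted p = 0.0408) on a probe set with a suffix that marks shared sequence, a call lost without E 2, E 3, E 4, V 2, V 3 or V 4 (adjusted p from 0.0516 to 0.141), and stood at -0.10 on the one that represents it. Of 21 white adipocyte markers 0 were called, and the median was -0.25: lipoprotein lipase (Lpl) stood at -0.50 (adjusted p = 0.204), the fatty acid transporter Cd36 at -0.60 (adjusted p = 0.307), adiponectin (Adipoq) at -0.25 (adjusted p = 0.506) and leptin (Lep) at 0.52 (adjusted p = 0.303). The 26 genes of fatty acid and cholesterol synthesis had 0 calls and a median of -0.10, where the smallest p belonged to the sterol sensor partner Insig1 at -0.83 (adjusted p = 0.227) and the desaturase Fads2 at 0.60 (adjusted p = 0.328). The Gapdh 3' to 5' ratio moved with the groups too, from 1.23 to 1.68 in E and from 1.94 to 3.42 in V, and its part in the values of these lists was not tested. In the limma fit with that ratio as a covariate the calls of Acaa2 and Cs were lost (adjusted p = 0.165 and 0.122).

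Among endothelial genes Cd93 and Cldn5 fell. Cd93, a lectin-like membrane protein of endothelial cells, read 8.87, 8.96, 9.28 and 8.54 in V 1 to V 4 and 7.94, 7.58, 7.95 and 7.79 in E 1 to E 4. All E animals were below all V animals, V 4 being the nearest to them. Cd93 fell by 1.10 ± 0.17 (adjusted p = 0.00743), and its type B probe set stood at -0.61 (adjusted p = 0.363). Cldn5, which seals the junctions between endothelial cells, read 8.82, 8.72, 8.72 and 8.18 in V 1 to V 4 and 7.36, 7.40, 7.58 and 7.33 in E 1 to E 4 and fell by 1.20 ± 0.21 (adjusted p = 0.0147), with V 4 below the other V animals and above the E animals. That call was lost without E 4, V 1, V 2 or V 3 (adjusted p from 0.0569 to 0.0685). Of 22 tested endothelial markers 2 fell and 0 rose, against 0.131% and 0.0817% of all genes, and the median was -0.33. At an unadjusted p under 0.05, 10 were lower and 0 higher, against 6.44% and 6.05% of all genes, and the groups of 6 did not overlap with E lower, against 4.41%. The vascular cadherin Cdh5 stood at -0.89 (adjusted p = 0.0752) and the apelin receptor Aplnr at -0.63 (adjusted p = 0.0968), both without overlap. Without V 4 they stood at -1.02 and -0.72 (adjusted p = 0.0281 and 0.0412). In that fit 5 of the 22 markers were called lower, against 0.351% of all genes. V 4 had the lowest endothelial score in V, so leaving it out widens such differences, and these values are a description. Rbp7, a retinol binding protein of adipose endothelium, stood at -0.71 (adjusted p = 0.216) with E 1 among the V animals. Arhgef15, a gene of endothelial cells that was in no list, fell by 0.84 ± 0.17 (adjusted p = 0.035), a call lost without E 1, E 2, E 3, E 4, V 1, V 2 or V 3 (adjusted p from 0.058 to 0.143). The endothelial score read 0.38, 0.41, 0.23 and -0.013 in V 1 to V 4 and -0.088, -0.28, -0.10 and -0.15 in E 1 to E 4, so V 4 was the lowest V animal there.

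**Figure D2:**
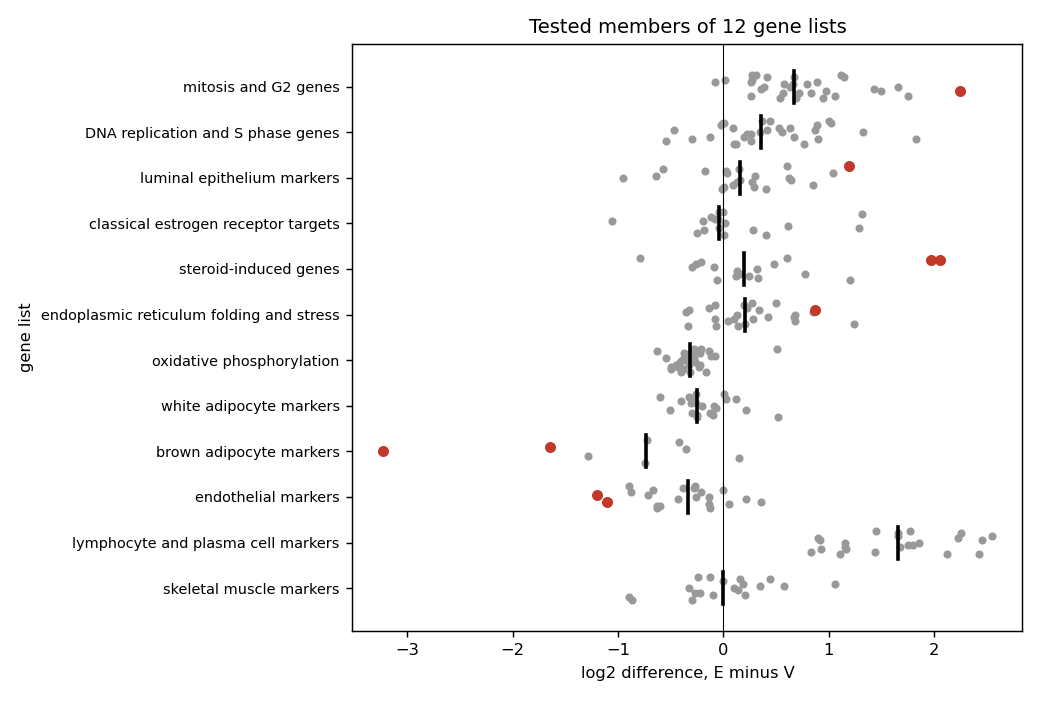
Log2 difference E minus V of each tested member (points, called members large and red) of 12 gene lists, with the list median as a bar. Medians run from -0.73 for brown adipocyte markers to 1.66 for lymphocyte markers; the lymphocyte list has no called member, and V 4 reads like E on it.

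The other falls came from different functions. Met, the receptor of hepatocyte growth factor, read 10.01, 9.78, 9.88 and 9.58 in V 1 to V 4 and 9.06, 8.43, 9.32 and 8.74 in E 1 to E 4 and fell by 0.93 ± 0.19 (adjusted p = 0.0418), without overlap. This call was lost without E 1, E 2, E 4, V 1, V 2 or V 3, down to a difference of -0.77 (adjusted p = 0.204) without E 2. Of 19 tested growth factors and receptors 1 fell and 0 rose, against 0.131% and 0.0817% of all genes, with a median of -0.15. Tgfb3 stood at -0.43 (adjusted p = 0.265) and Fgf10, a ligand of stromal cells, at -0.65 (adjusted p = 0.361). In the insulin-like growth factor axis 0 of 12 were called and the median was -0.26; the binding protein gene Igfbp2 stood at 1.00 (adjusted p = 0.168) and Igf2r at -0.45 (adjusted p = 0.199), both without overlap. Noct, a phosphatase with a daily rhythm, read 8.72, 8.63, 8.26 and 7.76 in V 1 to V 4 and 7.61, 7.30, 7.09 and 7.26 in E 1 to E 4 and fell by 1.03 ± 0.20 (adjusted p = 0.0334), a call lost without E 2, E 3, E 4, V 1, V 2 or V 3 (adjusted p from 0.0872 to 0.126). V 4 was closest to the E animals, and a brighter probe set with a suffix for shared sequence stood at 0.43. Of 18 tested clock genes 1 fell and 0 rose, against 0.131% and 0.0817% of all genes. Their median was 0.0012 (-0.067 without V 4), and Per3 stood at 0.30 (adjusted p = 0.557).

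Rasl12, a small GTPase of the Ras family, read 8.39, 7.78, 8.43 and 8.04 in V 1 to V 4 and 7.10, 6.68, 7.27 and 5.81 in E 1 to E 4 and fell by 1.44 ± 0.26 (adjusted p = 0.0182), with E 4 the lowest, a call lost without E 2, E 4, V 1 or V 3 (adjusted p from 0.0575 to 0.0872). Ppp1r1a, an inhibitor of protein phosphatase 1, fell by 0.99 ± 0.19 (adjusted p = 0.0271), a call lost without E 1, E 2, E 4, V 1, V 2 or V 3 (adjusted p from 0.058 to 0.107). Cp, the copper ferroxidase ceruloplasmin, fell by 0.81 ± 0.15 (adjusted p = 0.0271), a call lost without E 1, E 2, E 3, E 4, V 1, V 2 or V 3 (adjusted p from 0.0575 to 0.115). The lysosomal ganglioside activator Gm2a fell by 0.86 ± 0.16 (adjusted p = 0.0271) on its type A probe set, a call lost without E 1, E 2, E 4, V 1, V 2 or V 3 (adjusted p from 0.0535 to 0.114), and stood at 0.43 on a dim type B one. Rflnb, a filamin binding protein, fell by 0.74 ± 0.13 (adjusted p = 0.0147), a call lost without E 2, E 4 or V 2 (adjusted p from 0.0518 to 0.0645), and stood at -0.10 on its second probe set. Nicn1, a protein of tubulin-modifying complexes, fell by 0.90 ± 0.18 (adjusted p = 0.0496), a call lost without E 1, E 2, E 4, V 1, V 2 or V 3 (adjusted p from 0.0683 to 0.187). Each of these had groups that did not overlap. For Naxe, Dysf and Paqr4 the call rested on a probe set that does not represent the gene. Naxe, which repairs damaged NADH, fell by 0.76 on the called probe set and stood at -0.13 on the other. Dysf, a membrane repair protein, fell by 0.70 on the called one and stood at -0.21 and 0.53 on the others. Paqr4, a membrane protein of the progestin and adipoQ receptor family, fell by 0.92 on the called one and stood at -0.50 and -0.08 on the others. The adjusted p-values of these called probe sets were 0.0271, 0.0334 and 0.0388. The Naxe call was lost without E 2, E 3, E 4, V 1, V 2 or V 3 (adjusted p from 0.053 to 0.133), that of Dysf lost without E 1, E 2, E 3, E 4, V 2 or V 3 (adjusted p from 0.058 to 0.14) and that of Paqr4 lost without E 1, E 2, E 3, E 4, V 1, V 2 or V 3 (adjusted p from 0.061 to 0.184).

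Among the other rises, Jpt2, a binding protein of the calcium messenger NAADP, read 7.88, 6.92, 5.49 and 5.75 in V 1 to V 4 and 8.65, 8.74, 8.57 and 8.76 in E 1 to E 4 and rose by 2.17 ± 0.37 (adjusted p = 0.0111), a call lost without E 4 or V 3 (adjusted p from 0.0518 to 0.056). The E animals were nearly alike and the V animals widely spread, and the other probe sets of Jpt2 stood at 0.31 and -0.094. Med27, a subunit of the Mediator complex, rose by 0.73 ± 0.15 (adjusted p = 0.0496), a call lost without any 1 of the 8 animals (adjusted p from 0.0516 to 0.227). Fubp1, a single-strand DNA binding protein, rose by 1.32 ± 0.21 (adjusted p = 0.00832) on 1 probe set, while its representing probe set stood at 0.089. Eif4e3, a cap-binding protein, rose by 0.97 ± 0.19 (adjusted p = 0.0277) on 1 probe set, a call lost without E 1, E 2, E 4, V 2 or V 3 (adjusted p from 0.0632 to 0.0955), and stood at 0.019 on the one that represents it. Probe sets of a gene can read different transcript ends, and which ends these are was not analysed here.

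The largest called difference belonged to a probe set without a gene name. Probe set 99915_at read 3.77, 3.94, 3.77 and 5.74 in V 1 to V 4 and 9.31, 8.49, 9.52 and 9.38 in E 1 to E 4. V 1 and V 3 were at the floor, V 4 was the highest V animal, and the E animals were all far above. It rose by at least 4.87 (adjusted p = 0.00116). Its level in P was at or near the floor, from 3.77 to 4.01, and in E+P it was from 6.59 to 9.61, while all 3 fat pads without epithelium were at the floor. Probe set 115105_at rose by 1.97 ± 0.32 (adjusted p = 0.00743), and another unnamed probe set rose by 1.87 (adjusted p = 0.0492), a call lost without E 1, E 2, E 3, E 4, V 1, V 2 or V 3 (adjusted p from 0.0619 to 0.184). Probe set 169669_f_at fell by 2.62 or more (adjusted p = 0.0271; E 1 and E 3 at the floor), a call lost without E 1, E 2, E 3, E 4, V 1, V 2 or V 3 (adjusted p from 0.0575 to 0.0926). Probe set 109427_at, which the annotation pairs with several genes, fell by 1.14 ± 0.22 (adjusted p = 0.0271), a call lost without E 2, E 4, V 1, V 2 or V 3 (adjusted p from 0.086 to 0.0981).

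The design also holds estrogen added to progesterone, E+P against P, in 9 animals that share none with E and V. Of the 42 probe sets, 25 differed there in the direction they had in E against V, 9 of the 19 higher and 16 of the 23 lower; over all tested probe sets 50.6% were higher and 49.4% lower. Turned to the direction of E against V, the median difference in E+P against P was 0.068, and 41 of 42 were smaller in size. Since the 42 were picked by their size in E against V, that last count is a description. Called in the same direction were 3, all of them higher. Of all probe sets, 0.277% were called higher and 0.0824% lower in E+P against P. Pbk stood at 2.45 (adjusted p = 0.00102), Gpx3 at 0.89 (adjusted p = 0.0477) and 99915_at at 4.06 (adjusted p = 0.00217). Krt19 stood at 0.84 (adjusted p = 0.0746) and Jpt2 at 0.83 (adjusted p = 0.355). Zbtb16 was called in the opposite direction, at -1.61 (adjusted p = 0.0463).

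**Figure D3:**
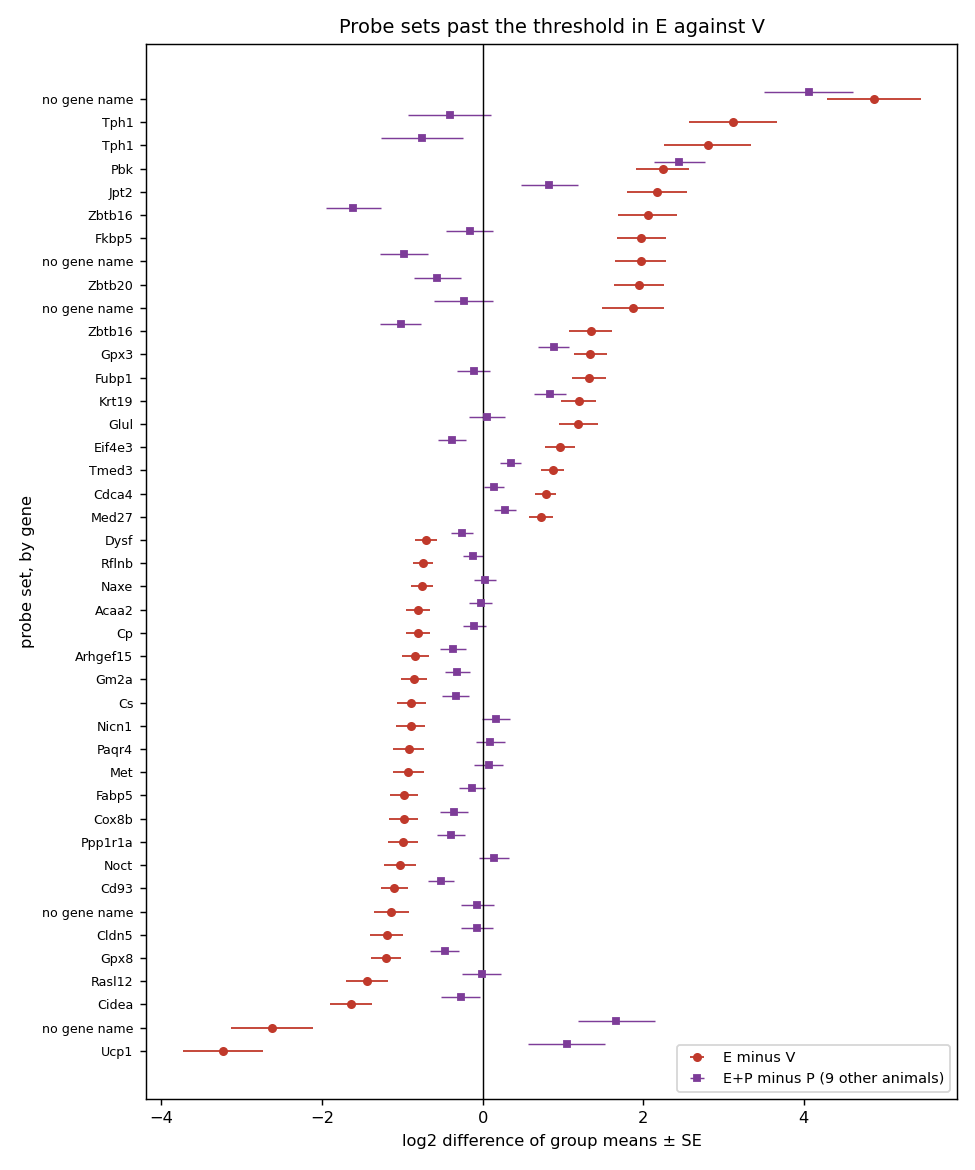
Log2 difference ± SE of the 42 called probe sets, E minus V (circles) and E+P minus P (squares), ordered by E minus V. The unnamed probe set at the top, Pbk and Gpx3 lie well to the right in both, while Zbtb16 changes side, from 2.06 to -1.61.

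Whether the estrogen difference depended on progesterone was tested by the interaction, (E+P minus P) minus (E minus V), which uses the same E and V values as the calls. A large E minus V shifts the interaction the other way, so its values for called probe sets are a description. The interaction passed the threshold for 7 of the 42 and for 17 of all 23067 (0.0737%). For Zbtb16 it was -3.66 (adjusted p = 0.00994) on type A and -2.37 (adjusted p = 0.0122) on type C. Zbtb16 averaged 7.08 in V, 9.14 in E, 8.95 in P and 7.35 in E+P, so it was high with either hormone and near the vehicle level with both. Fkbp5 averaged 7.08, 9.05, 7.90 and 7.74 in the same order, with an interaction of -2.14 (adjusted p = 0.0576). Ucp1 averaged 7.60, 4.37, 6.44 and 7.49, with an interaction of 4.28 (adjusted p = 0.0132), and it was at the floor in the fat pads of all 3 E+P CFP animals. E+P 5, at 5.48, was the only E+P gland below 7 for Ucp1. On type A Tph1 was at the floor in 3 of 4 P animals and 3 of 5 E+P animals, and P 3 (5.92) was above E 2 (5.50). Its interaction there was -3.53 (adjusted p = 0.0747). On type B P 3 (7.84) was also above E 2 (6.95), P 1 read 6.35, and P 2 and P 4 were at the floor. E+P 1 and E+P 3 read 5.33 and 6.24 on that type, and the interaction was -3.55 (adjusted p = 0.0669). The other probe sets with a called interaction were Zbtb20 113738_at at -2.51, Eif4e3 164093_at at -1.35, 115105_at at -2.95 and 169669_f_at at 4.29. P against V shares the vehicle animals with E against V and is given only side by side: in it Zbtb16 stood at 1.87 (adjusted p = 0.0923), Fkbp5 at 0.83 (adjusted p = 0.493) and Ucp1 at -1.16 (adjusted p = 0.577).

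**Figure D4:**
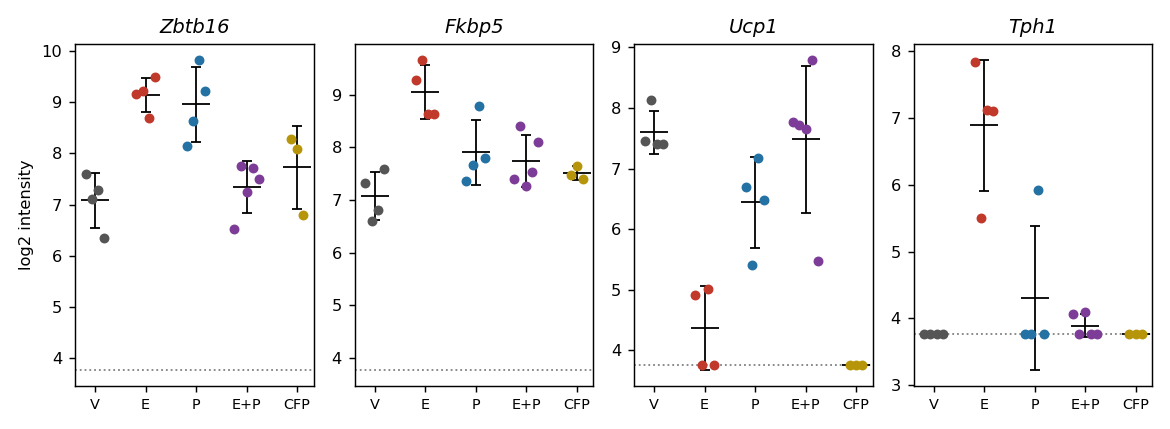
Log2 intensity of Zbtb16, Fkbp5, Ucp1 and Tph1 in each animal of the 5 groups (points), with mean and SD (bars) and the floor of 3.77 (dotted). Tph1, shown on type A, is high in the E animals and in 1 P animal, at 5.92, which is above the lowest E animal, at 5.50. Ucp1 in E (3.77 to 5.01) lies below the 4 V, 4 P and 5 E+P glands.

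Lymphocyte genes stood higher in E without a call. All 23 tested markers had a higher mean in E, by 0.83 to 2.55, and the median was 1.66; 15 were higher at an unadjusted p under 0.05, against 6.05% of all genes, and 0 were called. The B cell receptor component Cd79a read 6.19, 5.10, 5.44 and 8.13 in V 1 to V 4 and 7.93, 8.97, 7.78 and 8.67 in E 1 to E 4. V 4 was inside the E range and the other V animals below it, and the difference was 2.12 ± 0.63 (adjusted p = 0.174). V 4 stands apart by these same genes, so the values without it are a description and support no rise: 4 of the 23 were then called higher, against 0.376% of all genes, and Cd79a stood at 2.76 (adjusted p = 0.0341). The 3 tested lymph node venule and stroma markers had a median of 2.53 and 0 calls. Lymph node venule markers moved with the lymphocyte markers; the part of lymph node tissue left in the samples was not tested.

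The remaining lists had no called member. Of 15 macrophage markers 0 were called and the median was 0.14; the endotoxin coreceptor Cd14 stood at -0.54 (adjusted p = 0.215) without overlap and the scavenger receptor Cd163 at 1.06 (adjusted p = 0.365). The 29 fibroblast and matrix genes had a median of -0.059, with the laminin gene Lamc1 at -0.54 (adjusted p = 0.32) and the matrix protein gene Sparc at -0.46 (adjusted p = 0.376). Among 15 metalloproteinases and inhibitors the median was -0.0089, and the macrophage elastase Mmp12, at -2.56 (adjusted p = 0.394), ranged from 5.69 to 12.46 within V. The 16 interferon response genes had a median of -0.13, with Gbp3 at -0.89 (adjusted p = 0.289) and Ifi35 at 0.46 (adjusted p = 0.278). The 19 immediate early genes had a median of 0.20, and 6 were higher and 1 lower at an unadjusted p under 0.05, against 6.05% and 6.44% of all genes. Egr2, an early growth response factor, read 6.27, 5.97, 6.33 and 6.24 in V 1 to V 4 and 7.62, 7.15, 8.57 and 6.81 in E 1 to E 4; its groups did not overlap and its difference was 1.34 ± 0.33 (adjusted p = 0.101). Ier3 stood at 0.81 (adjusted p = 0.175) and Atf3 at -1.04 (adjusted p = 0.16). The 15 p53 targets had a median of 0.067, with Trp53inp1 at 0.60 (adjusted p = 0.252). Peripheral nerve markers (6 tested) and epidermis markers (6 tested) had medians of 0.045 and 0.004; without V 4 the first was -0.013.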

How the data were processed

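RNA of 20 animals was read on 3 Affymetrix array types. The values are the deposited signal intensities; the authors made them with MAS5, as the submitters' processing notes list, with no version or settings in the sources used here. Each array had a 2% trimmed mean near 150.1 before deposit, from the values. The 3 arrays with the same group and replicate number were joined as 1 animal, which the labels do not state. The labels call the replicates biologic; p-values measure the spread between these samples. The platform annotation gave 1 gene symbol for 29131 of 36899 probe sets, several for 724 and none for 6846, and 198 were controls. The reference table held 29044 of the named, and 0 symbols were updated.

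Each array was scaled to the common 2% trimmed mean of its type, floored at the type's 25th percentile and turned to log2. Probe sets above the 50th percentile in at least 3 animals were tested (7222, 7719 and 8126 on types A, B and C) with limma 3.58.1 in R 4.3.3: 5 group means, empirical Bayes with an intensity trend, and Benjamini-Hochberg adjustment over all types. A gene is represented by type A before B before C, then by probe sets without a special suffix, then by the highest mean. Members and the 33 gene lists were chosen with earlier results of these data known. Named genes are every gene with a called probe set, up to 4 members of each list with the smallest unadjusted p, 18 genes set by name, and the 10 higher and 10 lower genes with the smallest adjusted p that were called only without V 4. Lists are described by counts and medians. The Gapdh ratio was compared by a two-sided exact permutation test. On simulated data for this comparison (23239 probe sets), 42% of 2-fold and 82% of 4-fold rises and 44% of 2-fold and 64% of 4-fold falls were recovered, with 11 false calls. Alternatives changed the scaling, floor, filter, variance model, covariates and animals.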

Additional observations from a re-analysis of the deposited data

Results flagged for a closer look

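In 38 of 437 groups of 4 values (8.70%), the highest or lowest animal stood apart from the other three by Dixon's 95% limit. Chance alone flags about 1 in 20 groups that are independent and picked without regard to their values. The groups here are neither. They hold lymphoid genes, scores made from them, and genes picked because they pass only without V 4. The 8.70% and the counts by animal are therefore a description. V 4 was that animal for 17 of the 38. It was high for lymphoid genes: Glycam1 (10.78), Pou2af1 (7.29), Cxcl13 (7.09), Ms4a1 (8.55), Crlf3 (8.47), Slfn1 (6.71) and Cr2 (5.86), all log2 intensities, and for the lymphocyte score (1.32) and the lymph node venule score (1.27). It was also the highest V animal for probe set 99915_at (5.74). It was low for Cldn5 (8.18), Esr1 (9.11), Thra (8.48), Adipoq (13.02), Aoc3 (10.40), Zbtb16 on type C (7.05) and the insulin-like growth factor score (-0.17).

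E 2 stood apart for the lymph node venule score (2.29) and Slfn1 (7.87), where it was high, and for Adipoq (12.64), Lep (9.14), Cdh5 (8.63), Itga6 (6.28) and the representing probe set of Zbtb20 (7.10), where it was low. E 4 was high for Ms4a2 (8.31), Atf3 (6.63) and Tff3 (5.07) and low for Penk (7.60). E 1 was low for Paqr4 (7.57) and E 3 for Fubp1 (7.05), both on the representing probe set. V 1 was high for Igf1r (7.84) and for Tph1 on type B (5.93). V 2 was high for Ucp1 (8.13) and low for Naxe 161359_s_at (9.72). V 3 was low for Rflnb (9.98), Lor (6.23) and Fubp1 160248_at (4.99) and high for the fatty acid and cholesterol synthesis score (0.24).

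The limma interaction passed the threshold for 7 called probe sets. It contains the same E minus V values by which these were called, and a large E minus V shifts it the other way. A dependence on progesterone is therefore not established by it, and its values are a description. The interaction was 4.28 for Ucp1 and 4.29 for 169669_f_at, where the mean was not lower in E+P than in P. It was -3.66 for Zbtb16 on type A and -2.37 on type C, -2.95 for 115105_at, -2.51 for Zbtb20 113738_at and -1.35 for Eif4e3 164093_at. None of these had a higher mean in E+P than in P. Adjusted p-values lay between 0.00994 and 0.0419.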

How the results depend on the processing

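The count of 42 called probe sets (19 higher, 23 lower) moved with the processing more than the differences did: 0 of the 42 changed direction in any of 25 other settings. It was 11 (8 and 3) with no filter on dim probe sets, 281 (134 and 147) with array weights, 9 (7 and 2) with the lymphocyte score and 21 (14 and 7) with the Gapdh ratio in the model, and 82 (39 and 43) without V 4 and E 1 together. Falls were 39 with median scaling (22 rises, 36.1% of calls against 45.2%), 15 (17 rises) without an intensity trend and 15 (13 rises) with the E and V animals only. Leaving out 1 animal at a time gave 13 to 143 calls, 8 to 74 rises and 5 to 69 falls. Under all 17 settings that left out no single animal, 2 probe sets kept their call, Gpx3 and 99915_at. The interaction passed for 11 of the 42 with an offset in place of the floor, 12 with array weights and 4 with the Gapdh ratio, against 7. The Gapdh ratio difference of -0.65 ranged from -0.75 to -0.47 with 1 animal left out, where the smallest exact permutation p allowed is 0.0571. Animals at the floor limit the sizes for Tph1, Ucp1, Pbk, Zbtb20, 99915_at and 169669_f_at to lower bounds. With the brightest probe set standing for each gene, Jpt2 turned to -0.094 and Noct to 0.43; the cause was not tested. The number of same-direction probe sets in E+P against P stayed between 23 and 26 of 42. Over every value and setting run, 5708 values kept their direction and side of the threshold or stayed within the replicate spread, 325 lost the threshold, 96 passed it newly, 268 counts or levels moved and 2 reversed.

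Replicate numbers recur across groups, but the labels do not say that they mark shared animals or batches. Same-numbered E and V animals had correlations of their deviations of 0.066, -0.057, 0.010 and 0.057, so the numbers were not taken to pair them. A fit with the replicate block gave 44 calls (20 and 24), 36 of the 42 among them.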

Other observations

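Leaving out V 4, the vehicle gland with a high lymphocyte score, added 64 genes to the calls, 37 higher and 27 lower, and 89 of 12234 genes were then called (0.727%). For 29 of the 37 higher genes V 4 lay within or above the E range, and 5 of the 37 were on the lymphocyte or lymph node lists. V 4 stands apart by lymphoid genes, and it also had the highest Gapdh 3' to 5' ratio of the V animals, 3.42. The genes named in this section were picked because they pass only without V 4. Their calls without it, lymphoid or not, are therefore a description and support no rise or fall. Among the 10 with the smallest adjusted p were Fcmr, the immunoglobulin M receptor of B cells, at 2.23 against 1.67 with it, H2-Ob, an antigen presentation gene of B cells, at 2.59 against 1.91 with it, Skap1, an adaptor of T cells, at 2.46 against 1.70 with it, and Akna at 2.77 against 2.12 with it. Gpr18, Slfn1 and Crlf3 stood at 2.75 against 2.03 with it, 1.77 against 1.38 with it and 1.23 against 0.84 with it. Slc5a5, the sodium iodide symporter that the lactating gland also uses, read 8.45, 8.18, 8.80 and 10.15 in V 1 to V 4 and 10.46, 10.17, 10.15 and 10.32 in E 1 to E 4, so V 4 was level with the lowest E animal. With that V animal left out, the Slc5a5 difference was 1.80 (adjusted p = 0.00642).

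For 12 of the 27 lower genes V 4 lay within or below the E range. Ephx2, the soluble epoxide hydrolase, read 10.93, 10.56, 10.20 and 9.63 in V 1 to V 4 and 8.88, 8.64, 9.47 and 9.36 in E 1 to E 4 and fell by 1.48 (adjusted p = 0.0239) without V 4, which was the nearest of the V animals to E. Penk, the enkephalin precursor, fell by 1.33 and the annexin Anxa8 by 2.23 (adjusted p = 0.0218 and 0.0272), and with V 4 they stood at -1.16 and -1.97 (adjusted p = 0.0597 and 0.0669). Aoc3, an amine oxidase of adipocytes and vessels, Nrp2, a semaphorin and growth factor coreceptor, and Ndrg2 fell by 0.82, 1.00 and 0.80 without V 4. Dram1, Tmem182 and Acp5, the tartrate-resistant phosphatase, fell by 0.61, 0.92 and 0.84. The adjusted p-values of these 6 lay between 0.0175 and 0.026 by limma.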
